A study of Mus musculus with 2 samples.

Results

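Haemoglobin-rich cells were picked out of mouse bone marrow scRNA-seq by the rule that the 4 adult globin genes, Hba-a1, Hba-a2, Hbb-bs and Hbb-bt, gave at least 10% of a cell's UMIs (unique molecular identifiers, which tag single captured RNA molecules). The rule selected 81 of 9965 kept cells in the control (Ctrl) library and 11 of 6718 in the Map4k4-cKO (cKO) library, 92 of 16683 in all. Because the members were chosen on their measured globin share, that share and everything compared with it below is a description of the chosen cells. The text mainly concerns the Ctrl library, which held most of them.

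The study asked how loss of the kinase MAP4K4 affects blood cell formation in marrow. Each genotype gave 1 library, from mice of 13 to 14 weeks on a C57BL/6 background, prepared with a droplet-based 3′ kit. Ctrl mice are labelled control, and the methods write them as Mx1-Cre Map4k4 -/-, a notation they do not explain. cKO mice carried Mx1-Cre and Map4k4 f/f alleles and were treated with poly I:C. Mx1-Cre is driven by an interferon-inducible promoter that acts in many interferon-responsive cells, so the deletion was not restricted to a single lineage. Whether the Ctrl mice received poly I:C, and how many mice went into each library, are not given in the sources used here. Marrow was divided between 2 preparations, 1 depleted of red blood cells by lysis and 1 enriched for c-Kit+ cells on magnetic beads, and the c-Kit+ and marrow preparations were mixed at 2 parts to 3. In total 10220 Ctrl barcodes carried 71527701 UMIs, and 6872 cKO barcodes carried 64393950.

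With 1 library per genotype differences between genotypes cannot be set against a spread between replicates, and no test was made. Intervals given below are exact 95% intervals that cover counting error only. Map4k4 (ENSMUSG00000026074; chromosome 1, 39900913 to 40026310, plus strand, GRCm38), the targeted gene, had 6 UMIs in 6 of the 81 Ctrl members, or 26.8 CPM (9.82 to 58.3), where CPM here means UMIs per 1000000 UMIs other than the 4 adult globins. It had 0 UMIs in the 11 cKO members, where a floor of 3 counts over the group corresponds to 43.8 CPM, so a difference in the members was not detectable at this depth. In the other kept cells Map4k4 stood at 73.0 CPM in Ctrl and 64.5 CPM in cKO. Counts per gene do not show which exons were read, and whether the tags read lie in the deleted stretch is not given in the sources used here, so these levels do not check the genotypes. Below, Ctrl and cKO mean the library labelled Ctrl and the library labelled cKO, and each difference takes its direction from these labels alone. The libraries shared 3010 barcode sequences. Of the Ctrl members, 22 had a barcode that was also kept in cKO, where none of those barcodes was a member and the highest globin share was 0.0523%. Of the 11 cKO members, 7 had a barcode also kept in Ctrl, at globin shares of up to 0.405% there.

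Erythroblasts are the nucleated red cell precursors of the marrow. As they mature they divide a few more times, fill with haemoglobin made of alpha and beta globin chains and haem, build the membrane skeleton of the red cell, stop transcribing most other genes, condense the nucleus and expel it to become reticulocytes. The transcription factors GATA1 and KLF1 switch on globin, haem and membrane genes during this programme. Haem is assembled in mitochondria and cytosol by a chain of enzymes that starts with ALAS2, the erythroid 5-aminolevulinate synthase, and ends with FECH, which inserts iron. SLC4A1, known as band 3, is the anion exchanger and a main anchor of the red cell skeleton.

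The 4 genes that mark these cells are Hba-a1 (ENSMUSG00000069919; chromosome 11, 32283511 to 32284465, plus strand), Hbb-bs (ENSMUSG00000052305; chromosome 7, 103826534 to 103828096, minus strand), Alas2 (ENSMUSG00000025270; chromosome X, 150547375 to 150570638, plus strand) and Slc4a1 (ENSMUSG00000006574; chromosome 11, 102348824 to 102366203, minus strand), in GRCm38 as annotated by GENCODE. To show the letters before the starts of genes that define these cells, the 250 bases before the RefSeq gene start are shown for those with an entry, with Hbb-bt (chromosome 7, 103812524 to 103813996, minus strand) as the second adult beta gene. The windows are chr11:32283422-32283671 on the plus strand for Hba-a1, chr7:103827929-103828178 on the minus strand for Hbb-bs, chr7:103813924-103814173 on the minus strand for Hbb-bt and chrX:150547167-150547416 on the plus strand for Alas2, on RefSeq's GRCm38.p6. GENCODE places the start of each of these genes inside its window. Capitals mark GATAA, the core of the letters GATA factors bind, CACCC, the core of the letters KLF1 binds, and CCAAT, each searched on both strands, so that a match on the opposite strand shows in capitals as its reverse complement.
Hba-a1: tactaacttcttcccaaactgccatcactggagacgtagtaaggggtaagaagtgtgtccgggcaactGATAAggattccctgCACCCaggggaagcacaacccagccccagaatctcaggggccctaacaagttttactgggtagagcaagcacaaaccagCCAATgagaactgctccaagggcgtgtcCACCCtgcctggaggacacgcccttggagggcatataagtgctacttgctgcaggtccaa
Hbb-bs: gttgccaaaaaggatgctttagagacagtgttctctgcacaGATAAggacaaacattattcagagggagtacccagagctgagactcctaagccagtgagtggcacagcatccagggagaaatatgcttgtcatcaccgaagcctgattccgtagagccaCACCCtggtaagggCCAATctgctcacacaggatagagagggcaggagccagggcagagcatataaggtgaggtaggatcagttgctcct
Hbb-bt: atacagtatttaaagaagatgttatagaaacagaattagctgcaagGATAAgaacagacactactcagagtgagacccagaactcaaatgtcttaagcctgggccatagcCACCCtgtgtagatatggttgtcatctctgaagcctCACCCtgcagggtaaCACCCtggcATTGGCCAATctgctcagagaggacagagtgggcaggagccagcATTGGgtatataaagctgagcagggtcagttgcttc
Alas2: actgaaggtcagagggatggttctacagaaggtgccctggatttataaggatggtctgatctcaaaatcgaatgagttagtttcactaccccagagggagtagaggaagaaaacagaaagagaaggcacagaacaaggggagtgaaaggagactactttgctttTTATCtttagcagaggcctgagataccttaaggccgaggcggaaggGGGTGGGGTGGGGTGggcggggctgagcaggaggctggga

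Each of the 3 globin windows held all of these letters. The Hba-a1 window had 1 GATAA, 2 CACCC and 1 CCAAT, the Hbb-bs window had 1 of each, and the Hbb-bt window had 1 GATAA, 3 CACCC and 3 CCAAT. The Alas2 window had 1 GATAA and 3 CACCC, all on the opposite strand, and 0 CCAAT. Among 32851 RefSeq windows of the same length from 27025 genes, GATAA was present in 22.6%, CACCC in 52.0%, CCAAT in 33.8% and all of them in 3.45%. A match is a description of the letters and not a site shown to be bound. The windows of Hba-a1 and Hba-a2 were identical at 247 of 247 aligned bases, while those of Hbb-bs and Hbb-bt were identical at 185 of 239 (77.4%).

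Haemoglobin-rich cells were rarer in cKO. They made up 0.813% of kept Ctrl cells (0.646 to 1.01) and 0.164% of kept cKO cells (0.0818 to 0.293), a share 4.96-fold higher in Ctrl (2.63 to 10.3). Members held 66.2% of all adult globin UMIs of the kept Ctrl cells with 0.522% of their total UMIs, and 81.2% of those in cKO with 0.207% of total UMIs. Globin outside the members differed in the same direction. In the other kept cells the 4 globins took 0.107% of UMIs in Ctrl (0.106 to 0.107) and 0.0233% in cKO (0.0229 to 0.0237), 4.57-fold more in Ctrl. In B cells, picked by a UMI of both Cd79a and Cd79b below the globin threshold, which should make no globin, the share was 0.0724% in Ctrl and 0.00338% in cKO. Cells with UMIs of both Gata1 and Klf1 but a globin share under 10%, used here as a reference for earlier erythroid cells, made up 3.35% of Ctrl (3.01 to 3.72; 334 cells) and 1.18% of cKO (0.932 to 1.46; 79 cells), a share 2.85-fold higher in Ctrl. How completely red cells were lysed in each library and how many erythroid cells the marrow held cannot be told apart, nor can either be told apart from genotype.

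**Figure D1:**
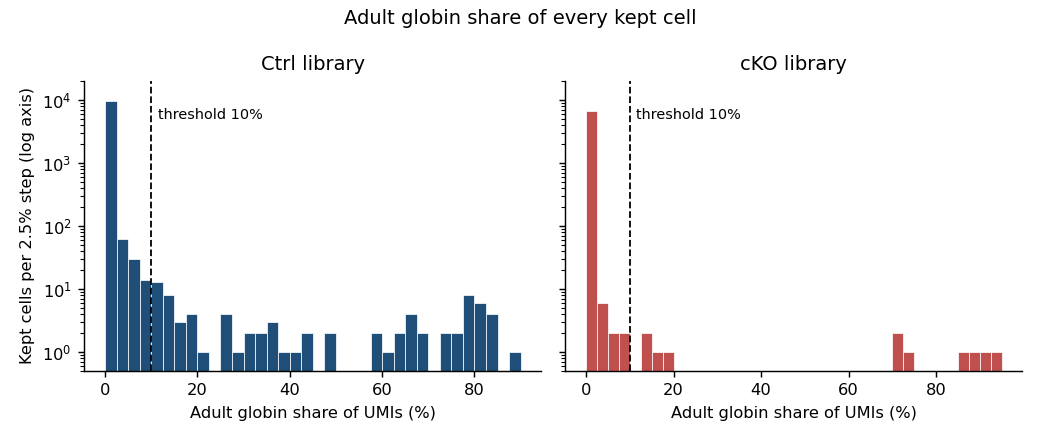
Number of kept cells (log axis) in steps of 2.5% of the adult globin share of UMIs, for the Ctrl library on the left and the cKO library on the right, with the threshold of 10% as a dashed line. The Ctrl members, 81 cells, are spread from the threshold up to 89.2%, while the 11 cKO members form a group of 4 between 13.3 and 18.1% and a group of 7 from 70.1% upward.

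The threshold cut through a continuous range in Ctrl. The shares just outside it were 9.87%, 9.80% and 9.67%, and those just inside were 10.1%, 10.2% and 10.3%, with 44 Ctrl cells between 5 and 10%. In cKO 4 cells lay between 5 and 10%, the highest at 8.88%, and the lowest member was at 13.3%. Among the Ctrl members the globin share had a median of 37.1% (lowest 10.1%, highest 89.2%), and no member lay between 48.6 and 58.5%. Over their summed UMIs, 147960 of 372131 were globin in Ctrl (39.8%) and 64542 of 133047 in cKO (48.5%). For the description the Ctrl members were divided by globin share into 29 cells at 10 to 25%, 18 at 25 to 50%, 13 at 50 to 75% and 21 at 75 to 100%. The cKO members had 4, 0, 3 and 4 cells in those ranges.

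Ctrl members had a median of 3544 UMIs (quartiles 1730 and 6334, lowest 500, highest 16581) and 530 detected genes (lowest 205, highest 3678). The reference cells with Gata1 and Klf1 had 19062.5 UMIs and 4424 genes. The 11 cKO members had a median of 10161 UMIs (lowest 973, highest 37743) and 609 genes. Detected genes were most numerous at 10 to 25% globin and fewest at 75 to 100%. The median number of genes was 1851 at 10 to 25%, 595.5 at 25 to 50%, 705 at 50 to 75% and 304 at 75 to 100%, at median UMIs of 5300, 2107, 5236 and 3507, so it did not fall at each step. When every member was thinned to 300 UMIs other than globin, which left out none of them, the medians were 223, 186.5, 192 and 173 genes, against 239 in the reference cells, so the remaining RNA of the most globin-rich cells was spread over fewer genes at equal depth. Mitochondrial genes gave 1.55, 1.15, 0.303 and 0.274% of UMIs at the median of the 4 ranges. Over the summed UMIs other than globin of each range they gave 2.34, 1.53, 1.04 and 1.39%, against 1.94% in the other kept cells. Ribosomal protein genes gave 17.1, 7.71, 6.23 and 7.62% of UMIs other than globin.

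**Figure D2:**
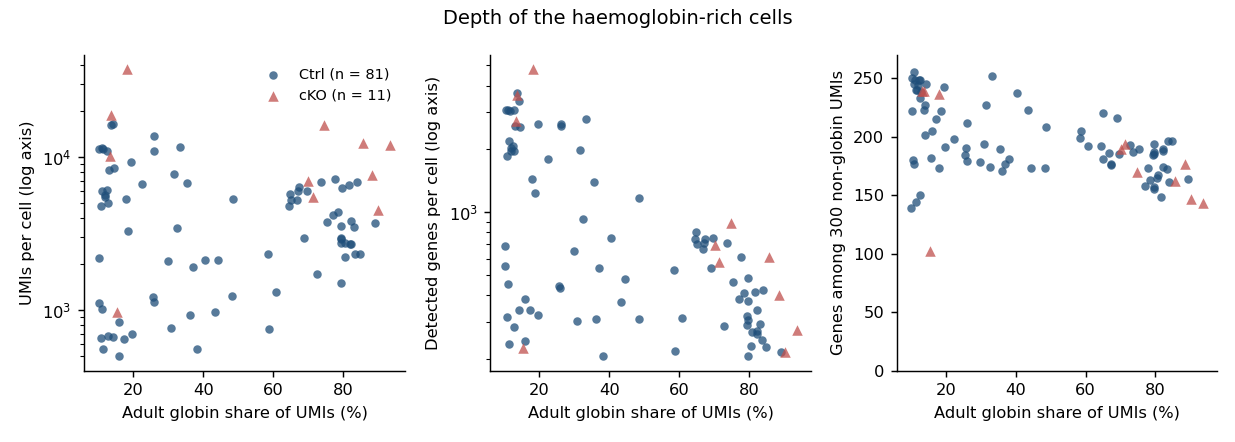
UMIs per cell (left, log axis), detected genes per cell (middle, log axis) and genes among 300 UMIs other than globin (right) against the adult globin share of UMIs, for each Ctrl member (circles, n = 81) and each cKO member (triangles, n = 11). The Ctrl median of detected genes is 1851 at 10 to 25% and 304 at 75 to 100%, and that of the thinned numbers 223 and 173, while from 25 to 50% to 50 to 75% both medians are higher, at 595.5 and 705 and at 186.5 and 192.

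The label of these cells was checked against Alas2 and Slc4a1, which the rule did not use, although they were chosen as markers with earlier results of these data in view. Alas2 had a UMI in 71 of 81 Ctrl members (87.7%), against 24.0% of the reference cells, 2.29% of the other kept cells and 2.09% of B cells, whose median depth was 3111 UMIs against 3544 in the members. Slc4a1 had a UMI in 65 of 81 members (80.2%), against 34.1%, 5.10% and 4.30% of those groups. In cKO 10 of the 11 members had both. Alas2 stood at 3248 CPM (3016 to 3492) in the Ctrl members and 5.65 (5.11 to 6.23) in the other kept cells. Slc4a1 stood at 3604 (3361 to 3861) and 27.7 (26.4 to 28.9). The erythroid label therefore held for most members.

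In all 7 Ctrl members and 1 cKO member had neither gene. The 7 Ctrl cells lay at 10 to 25% (4 cells), 25 to 50% (2 cells) and 50 to 75% (1 cell) and were shallow, with a median of 702 UMIs (500 to 1026). Their neutrophil marker genes took a median of 11.4% of UMIs other than globin. Beta globin gave 36.7% of their summed globin UMIs (34.2 to 39.2), but the cells were split. Its share was 57.3 and 52.1% in 2 of them and 3.49 to 17.7% in the others. The cell at 3.49% had 78 Hba-a2, 5 Hba-a1, 3 Hbb-bt and 0 Hbb-bs UMIs. Some Ctrl members with Alas2 or Slc4a1 also had low beta shares, among them cells at 3.13, 8.48 and 18.3%. The cKO cell had 973 UMIs and a beta share of 6.0%. Members at 10 to 25% included 8 cells under 1000 UMIs, 3 of them without either marker, which together gave 3.25% of that range's UMIs. At the high end the name erythroblast, which implies a nucleus, was less well met. Malat1, a long non-coding RNA kept in the nucleus, had a UMI in 26 of 29, 17 of 18 and 10 of 13 cells of the first 3 ranges and in 10 of 21 cells at 75 to 100%. Its level was 6033 CPM (5634 to 6452), 15163 (14116 to 16267) and 20399 (18397 to 22556) in the first 3 ranges and 987 (553 to 1628) at 75 to 100%, against 4059 (4044 to 4073) in the other kept cells. The cells at 50 to 75% were split, since 6 of the 13, at 64.5 to 67.4% globin, held 360 of the 372 Malat1 UMIs, and the other 7 held 12, a level of 1751 CPM, with 3 cells at 0. Members are therefore called haemoglobin-rich cells below.

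The share of beta among the globins was close in the members of both libraries, while the share of Hbb-bt within beta differed between the libraries and along the globin range. Beta globin, Hbb-bs plus Hbb-bt, gave 57.2% of globin UMIs in the Ctrl members (56.9 to 57.4) and 58.4% in cKO (58.1 to 58.8), against 49.4% in the other kept Ctrl cells (49.1 to 49.8) and 57.1% in the other kept cKO cells (56.3 to 57.9). Averaged over cells instead of UMIs the member values were 51.8% and 53.8%. By range the Ctrl beta share was 57.2, 57.4, 60.0 and 55.4%. Hbb-bt, the minor adult beta gene, gave 34.1% of beta UMIs in the reference cells (33.5 to 34.7), 23.5% at 10 to 25% (22.8 to 24.3), 19.1% at 25 to 50% (18.4 to 19.7), 16.0% at 50 to 75% (15.5 to 16.5) and 17.5% at 75 to 100% (17.1 to 17.9). The cKO library gave 46.9% in its reference cells, 30.6% at 10 to 25%, 20.9% at 50 to 75% and 15.3% at 75 to 100%. Among these groups the share was highest in the reference cells of each library. A high share was not particular to erythroid cells, since the other kept cells had 31.7% in Ctrl and 45.3% in cKO. Ctrl B cells had 26.7%, while cKO B cells had only 1 Hbb-bt and 10 Hbb-bs UMIs. The part of free RNA in these shares was not tested. Hba-a2 gave 47.8% of alpha UMIs in Ctrl and 45.7% in cKO, a split that is uncertain because both alpha genes are near-identical copies. Embryonic globins were close to absent. Hbb-bh1, Hbb-bh2 and Hba-x had 0 UMIs in the Ctrl members (a floor of 3 counts is 13.4 CPM), Hbb-y had 1, and the theta globins Hbq1b and Hbq1a had 20 and 8.

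For other genes, summed UMIs of a group were scaled to CPM as above, without the 4 adult globins, and a gene was called higher or lower when it differed at least 2-fold with at least 50 UMIs in both sums together. Between the Ctrl members and the other kept Ctrl cells, 12449 genes had enough UMIs, of which 13.6% (1691) were higher and 17.4% (2169) lower in members. With all UMIs in the denominator, so that globin itself counts, 821 were higher and 4525 lower. With the further condition that the interval exclude 0, 8.82% were higher and 8.19% lower. The median log2 ratio was 0.20, and -0.16 without the 2964 genes at 0 in 1 of the sums, whose ratio is only a bound at the floor of 3 counts. Between the top range (75 to 100% globin) and the bottom range (10 to 25%) of the Ctrl members 450 genes had enough UMIs, of which 13.8% (62) were higher and 49.3% (222) lower in the top range, with a median log2 ratio of -0.97. With all UMIs in the denominator 23 were higher and 393 lower. With an interval excluding 0 they were 13.6% and 40%. These contrasts are those of the rule itself, so the counts are read as descriptions only. The members gave 224171 UMIs other than globin and the top range 15192 of these.

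Haem synthesis genes were all higher in the members. All 8 enzymes were at least 2-fold higher than in the other kept cells, with a median log2 ratio of 4.04 against 0.20 over all genes, and Alas2 had 9.17 (8.99 to 9.35). Within the members the levels did not follow a single direction. Alas2 was at 28.3 CPM in the reference cells, 1027 (866 to 1209) at 10 to 25%, 2811 (2368 to 3312) at 25 to 50%, 9432 (8080.2 to 10943) at 50 to 75% and 17772 (15731 to 20001) at 75 to 100%. The Alas2 intervals of the 4 ranges do not overlap, but they cover counting error of the sums and not the spread between cells. Alas2 had a UMI in 21 of 21 cells of the top range. Single cells overlapped between ranges. A cell of the top range had 3 Alas2 UMIs among 934 other than globin, and a cell at 10 to 25% had 3 among 705. Fech was at 174 in the reference cells and at 977, 1841, 4168 and 3489 in the ranges. Cpox, which makes protoporphyrinogen, was highest at 10 to 25% with 1369 (1182 to 1577) and at 263 (71.7 to 674) in the top range. Of the 6 enzymes with enough UMIs for the top against the bottom range, 2 were higher (Alas2 and Fech) and 3 lower, near the 49.3% of all genes that were lower, with Cpox at a log2 ratio of -2.38. All UMIs in the denominator moved every ratio down alike, the median over all genes from -0.97 to -3.15. The direction of Fech, at 1.84 before, turned with that scaling, while Alas2, at 4.11 before, stayed higher.

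Most iron and haem transport genes were higher in the members too. Of 16 iron and haem transport genes 12 were higher in the members and 1, Flvcr1, was lower, with a median log2 ratio of 2.21. Tfrc, the transferrin receptor, was at 411 CPM in the reference cells, 1441 (1249 to 1653), 1742 (1397 to 2146) and 1974 (1383 to 2732) in the first 3 ranges and 197 (40.7 to 577; 3 UMIs) in the top range. Slc25a37, mitoferrin-1, which carries iron into mitochondria, was at 118 in the reference cells and at 1590.3, 3702, 4277 and 5793 in the ranges. Ftl1, the ferritin light chain, was at 1441, 2197, 2248 and 5003, while the heavy chain gene Fth1 was at 5391, 4098, 2632 and 4476 without a single direction. Of 9 such genes with enough UMIs 3 were higher and 4 lower in the top than in the bottom range, the latter near the share over all genes. Slc25a37, with a log2 ratio of 1.86, and Ftl1, with 1.80, turned direction with all UMIs in the denominator.

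Membrane and skeleton genes peaked at 50 to 75% globin. In the members 22 of 24 were higher than in the other kept cells and none lower, with a median log2 ratio of 4.41, and Slc4a1 had 7.03 (6.91 to 7.14). Slc4a1 was at 176 CPM in the reference cells, 2546 (2289 to 2824), 4494 (3929 to 5116) and 8609 (7319.9 to 10059) in the first 3 ranges and 4410.2 (3419 to 5597) in the top range. In the third range 6 of the 13 cells held 134 of its 157 UMIs, and the other 7 were at 3410 CPM together, 3 of them at 0. Per cell the list took a median of 1.08, 2.63, 4.06 and 1.94% of UMIs other than globin in the 4 ranges, with 0.205 to 5.64% among the cells of the third. Summed over the list the levels were 12537, 17855, 37782 and 20208 CPM. Tmcc2, a transmembrane coiled-coil protein, was at 278, 1762, 10364 (8945 to 11942) and 197 (40.7 to 577), and in the third range its 189 UMIs came from 7 of 13 cells. Epb41, the skeleton protein 4.1, stayed high in the top range, at 449, 1782, 8280.3 and 7438. Aqp1, the water channel, was at 1269 and 653 in the lower ranges and had 0 UMIs above 50% globin. In the top against the bottom range 2 of 14 membrane genes were higher and 7 lower, near the background share for lower calls.

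Erythroid transcription factors were mostly higher and progenitor genes mostly lower in the members than in the other kept cells. Of 16 erythroid transcription factors 12 were higher in the members than in the other kept cells and none lower, with a median log2 ratio of 1.99, and Sox6, a repressor of embryonic globins, had 5.32 (4.99 to 5.64). Gata1 was at 150.2 CPM in the reference cells, which were picked on it, 199.7 (133 to 289) at 10 to 25% and 139 (55.7 to 285) at 25 to 50%, and had 0 UMIs in the 34 cells above 50%, where the upper bounds are 202 and 243. Klf1 was at 285 (204 to 388), 99.0 (32.1 to 231) and 54.8 (1.39 to 305; 1 UMI), and at 0 in the top range. Sox6 was at 364, 455 and 932 and at 0 in the top range, and E2f2, a cell cycle factor of erythroid cells, at 613, 693, 768 and 1119. Between the top and bottom ranges 3 of these genes had enough UMIs and none passed 2-fold. Among 11 progenitor genes 7 were lower in the members and none higher, with a median log2 ratio of -1.60. Kit, the stem cell factor receptor used in the magnetic enrichment, had 5 UMIs in 2 Ctrl members (22.3 CPM) against 77.6 in the other kept cells, a log2 ratio of -1.80 (-3.42 to -0.57), and Myb had -1.67 (-2.31 to -1.09). Car1, carbonic anhydrase 1, was at 1954 in the reference cells, 742 (606 to 899) at 10 to 25% and 79.2 (21.6 to 203) at 25 to 50%.

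**Figure D3:**
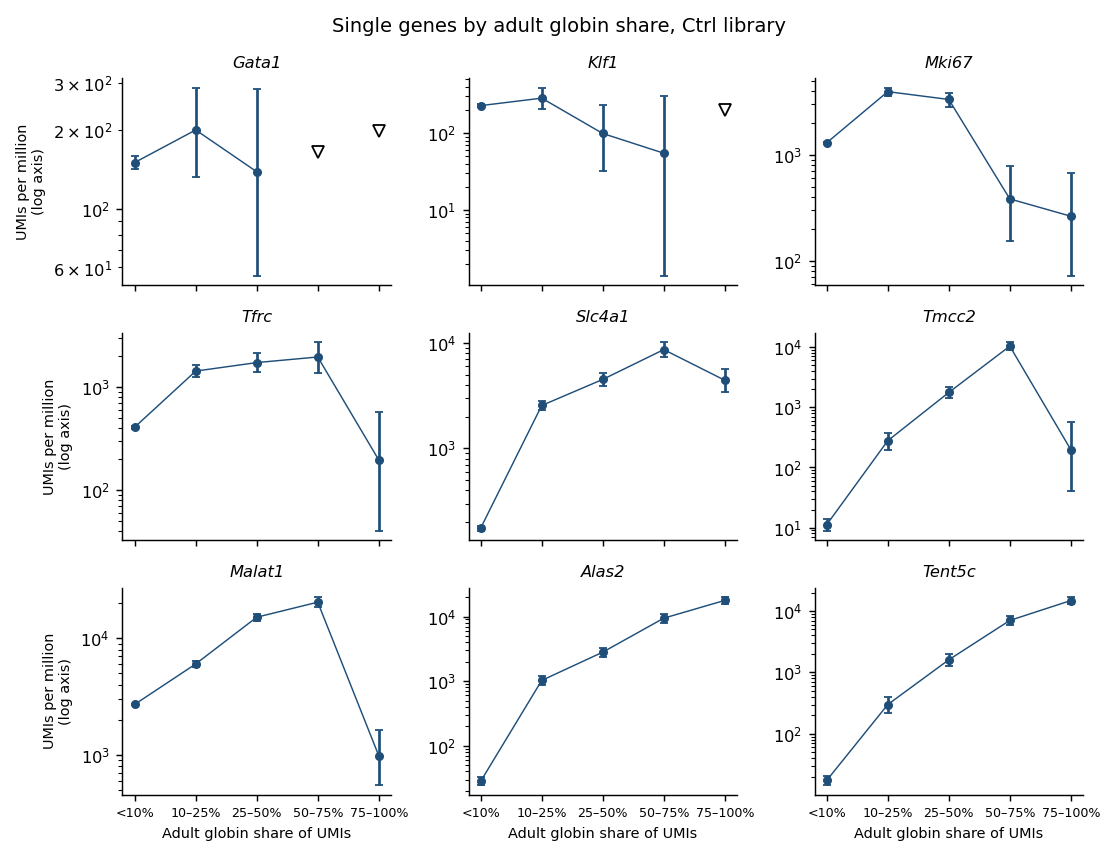
Level on the CPM scale (log axis) of 9 genes in Ctrl cells, from Gata1 and Klf1 positive cells under the threshold (marked <10%) through the 4 ranges of globin share, with exact 95% intervals as bars and open triangles at the floor of 3 counts where a group had 0 UMIs. Gata1 has 0 UMIs and Klf1 1 UMI above 50% globin, the summed levels of Slc4a1, Tmcc2 and Malat1 peak at 50 to 75%, where 6 of 13 cells hold 360 of the 372 Malat1 UMIs, and Alas2 and Tent5c are highest at 75 to 100%, at 17772 and 14810.4.

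Genes of late remodelling, which clear proteins and organelles or serve the mature red cell, were mostly higher with more globin. All 19 were higher in the members than in the other kept cells, with a median log2 ratio of 5.12. Of the 10 with enough UMIs in the top and bottom ranges 9 were higher in the top range, none lower, and Car2 was within 2-fold, with a list median of 4.14 against -0.97 over all genes. Some genes of other cell types were also higher in the top range. Of 10 neutrophil markers 5 were higher and 2 lower in the top range, against 13.8% and 49.3% over all genes. The median log2 ratio of these markers was 1.11. In the bottom range 2 of the 29 cells held 780 of the 1501 S100a8 UMIs and 1194 of the 2060 S100a9 UMIs. S100a8 and S100a9 were at 21130 and 26922 CPM in the top range and at 10704 and 14691 in the bottom range. Without the 2 cells the bottom range was at 6182 and 7425, so the counts of markers depend on them. Retnlg had 2.24 (1.43 to 3.01), Ltf 2.00 and Lcn2 1.98 (1.41 to 2.52), while Elane had -1.33 (-2.21 to -0.56) and Prtn3 -1.11 (-2.13 to -0.24). Both plasma cell genes with enough UMIs were higher, Igkc with 1.27 (0.65 to 1.85) and Igha with 1.48 (0.74 to 2.17). With all UMIs in the denominator every ratio moved down alike, the median over all genes to -3.15. Ltf then had -0.17, Lcn2 -0.19, Igkc -0.91 and Igha -0.69, and none of the 5 neutrophil markers stayed 2-fold higher. The part of free RNA in these values was not tested. Summed over the late remodelling list the levels were 3495 CPM in the reference cells and 7673, 15896, 61527 and 73855 in the ranges. Tent5c, a poly(A) polymerase, was at 299.5 (216 to 405), 1603 (1274 to 1993), 7019 (5859 to 8340.2) and 14810.4 (12950.0 to 16859.8), a log2 ratio of 5.63 (5.15 to 6.14) between the ends. Bpgm, the bisphosphoglycerate mutase that sets oxygen affinity, was at 128, 970.0, 7348 and 13296, a log2 ratio of 6.69. Bnip3l, the receptor that removes mitochondria, was at 349, 831, 3016 and 5924. Xpo7 and Slfn14 peaked at 50 to 75%, as Tmcc2 did. Xpo7, a nuclear export receptor, was at 171, 1128, 7238 and 461, and Slfn14, an endoribonuclease, at 42.8, 337, 2084 and 395. Among redox genes Gpx1, a glutathione peroxidase, was at 3658, 4533, 14422 and 21129.5, with a log2 ratio of 2.53 (2.32 to 2.73) between the ends. Of 10 redox and chaperone genes 5 were higher in the members and 1, Hspa8, was lower, against 13.6% and 17.4% over all genes.

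**Figure D4:**
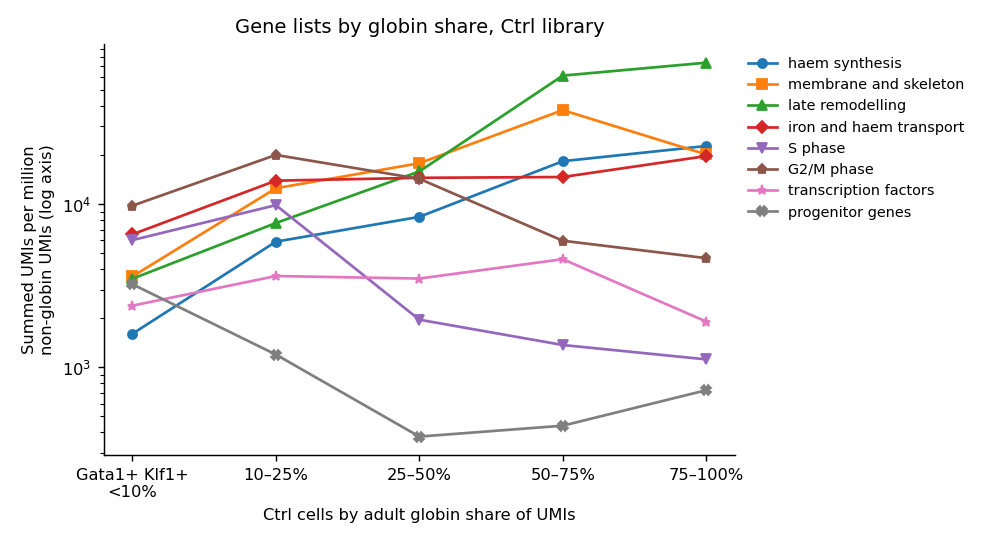
Summed level in CPM (log axis) of 8 gene lists in Ctrl cells, from Gata1 and Klf1 positive cells under the threshold through the 4 ranges of globin share. Late remodelling genes go up to 73855 at 75 to 100% globin, membrane genes peak at 37782 at 50 to 75%, and S phase genes go down to 1119.

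S phase and G2/M genes were highest at 10 to 25% globin, and a few cells at 25 to 50% also held many G2/M UMIs. In the members as a whole 13 of 28 S phase genes and 16 of 25 G2/M genes were higher than in the other kept cells and none lower, against 13.6% higher and 17.4% lower over all genes, with median log2 ratios of 0.97 and 1.15. S phase genes summed to 6030 CPM in the reference cells and to 9877, 1960, 1371 and 1119 in the ranges, and G2/M genes to 9800 and to 20075, 14332, 5977 and 4674. Per cell, G2/M genes took a median of 1.81, 0.353, 0.598 and 0.428% of UMIs other than globin in the ranges, so the typical cell at 25 to 50% was not above those of the higher ranges. Mki67, a marker of cycling cells, was at 3965 (3643 to 4308) in 23 of 29 cells at 10 to 25%, at 3345 (2861 to 3888) in 8 of 18 cells at 25 to 50%, and at 384 (154 to 791) and 263 (71.7 to 674) above. At 25 to 50%, 3 cells with 26.1 to 35.5% globin held 140 of the 169 Mki67 UMIs and 542 of the 724 G2/M UMIs, and without them Mki67 was at 888 CPM and the G2/M sum at 5571. Pcna, the replication clamp, had 163 UMIs in the bottom range (1162 CPM) and 0 in the top range. Between the top and bottom ranges 9 of 10 S phase genes and 13 of 15 G2/M genes were lower, against 49.3% of all genes, and 6 of the 10 S phase genes had 0 UMIs in the top range. Nusap1 was higher, and Ube2c, a ubiquitin-conjugating enzyme of mitosis, had 0.83 (0.06 to 1.53). With all UMIs in the denominator Ube2c had -1.34 and Slc4a1, at 0.79 otherwise, had -1.38, and the median over all genes was -3.15. Histone genes gave 2.01% of UMIs other than globin at 10 to 25% and 0.259, 0.263 and 0.217% in the other ranges. Of 12 cell cycle exit genes 5 were higher in the members and 2 lower, the latter near the 17.4% over all genes.

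Outside the lists, genes were named by the size of their ratio. The highest ratio was that of Apol11b, an apolipoprotein L gene, at 464 CPM in the Ctrl members against 0.805 in the other kept cells, a log2 ratio of 9.17 (8.69 to 9.66). Sowaha had 6.75 (6.23 to 7.24), Fn3k, a kinase that repairs glycated proteins, 6.33 (5.66 to 6.95), Prxl2a 6.20 (5.96 to 6.43) and Tfdp2, a partner of E2F factors, 5.01. At the other end were Ifitm1, with -3.03 (-5.31 to -1.49) from 3 UMIs in the members, and Emb, with -2.61 (-3.74 to -1.69). Between the ends of the globin range Prxl2a again had a high ratio, 4.95 (4.34 to 5.60), from 207 to 6385 CPM. Gabarapl2, an autophagy protein, had 4.31 (3.51 to 5.15), Gda, guanine deaminase, 3.90 (3.22 to 4.59), Pabpc1, the poly(A) binding protein, 3.74 (3.44 to 4.04), and Ubb, a polyubiquitin gene, 3.64 (3.21 to 4.08). The lowest were Hist1h1b, a linker histone, with -5.05 (-10.35 to -2.56), Dek, a chromatin protein, with -4.34 (-7.40 to -2.48), and Ctse, cathepsin E, with -3.97 (-9.29 to -1.47), each from 1 or 2 UMIs in the top range. Pabpc1, Ubb and the histone genes belong to families with near-identical copies, so their counts are uncertain.

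Rsad2, known as viperin and listed among interferon-stimulated genes, followed the globin share. It was at 13.1 CPM in the reference cells and at 214 (144 to 305), 2019 (1647 to 2451), 4442 (3529 to 5518) and 5727 (4589 to 7059) in the ranges, and the members had a log2 ratio of 6.22 (6.03 to 6.40) over the other kept cells. Of 14 interferon-stimulated genes 5 were higher in the members (Isg15, Ifit1, Irf7, Rsad2 and Cmpk2) and 1, Bst2, was lower, against 13.6% and 17.4% over all genes. Their median log2 ratio was 0.74. In erythropoietin signalling 4 of 9 genes were higher (Epor, Jak2, Pim1 and Bcl2l1) and 1, Stat5a, was lower, against the same shares over all genes. Bcl2l1, which encodes the survival protein BCL-XL, was at 21.4, 297, 1206 and 1316 in the ranges. In the MAP4K family, of 7 genes with enough UMIs Map4k5 was higher, at 143 against 11.6 CPM with a log2 ratio of 3.63 (3.07 to 4.13), and Map4k4 was lower, with -1.45 (-2.89 to -0.32), both counts near the shares of 13.6% and 17.4% over all genes. Among members at 25% globin and above Map4k4 had -0.61. Of 3 nuclear RNAs Malat1 was higher and Kcnq1ot1 lower.

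Among genes of other cell types the neutrophil markers were the most abundant list. The 12 neutrophil markers, all of which were detected, summed to 59205 CPM in the Ctrl members, with S100a9 the most abundant by UMIs, against 158831 in the other kept cells, and 11 of the 12 were lower in the members. S100a8 had a log2 ratio of -1.48 (-1.53 to -1.43) and S100a9 of -1.33 (-1.37 to -1.30). S100a8 had a UMI in every kept cell of both libraries, B cells included. Per cell the neutrophil markers took a median of 5.78% of UMIs other than globin in the Ctrl members (0.866 to 34.6), against 2.25% in B cells, and 18 of 81 members were above 10%. A single cell at 26.1% globin with 13847 UMIs held 1014 of the 1542 S100a8 UMIs of the range from 25 to 50%. No barcode was removed as a doublet here, and the part of doublets and free RNA in these values was not tested. Macrophages, the cells around which erythroblasts mature, were marked by genes that summed to 34 UMIs in 14 of the 81 members. C1qa had 8 UMIs in 4 cells, 35.7 CPM against 9.28 in the other kept cells, and 5 of 9 such genes were higher, 3 of them with an interval excluding 0. A single member held 5 of the 8 C1qa UMIs, and without it C1qa was at 13.5 CPM and the list had 19 of its 34 UMIs. In cKO no member had a UMI of them. Monocyte markers were lower for 4 of 7 genes and summed to 92 UMIs, B cell markers for 3 of 8 and 25 UMIs, and plasma cell markers for 4 of 7 and 495 UMIs, with Igkc the most abundant. T and NK cell markers summed to 28 UMIs with 1 of 7 higher and 2 lower, megakaryocyte markers to 14 UMIs with 1 of 8 higher and 1 lower, which is near the 13.6% and 17.4% over all genes, and basophil, mast cell and eosinophil markers to 7 UMIs with 4 of 7 lower. The 4 Y-linked genes on the sex-linked list had 0 UMIs in the members of both libraries. Xist, the RNA that silences an X chromosome in female cells and stays in the nucleus, was at 1241 CPM (1063 to 1439), 772 (549 to 1055), 219 (59.8 to 562) and 197 (40.7 to 577) in the 4 Ctrl ranges.

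Over all members, Alas2 and Slc4a1 differed by less than 2-fold between the libraries. Members of cKO and Ctrl were compared on 68505 and 224171 UMIs other than globin over 879 genes, of which 5.46% (48) were higher and 8.87% (78) lower in cKO, with a median log2 ratio of 0.19. With median-of-ratios scaling, which moves that median to -0.00, 16 were higher and 95 lower, and with all UMIs 16 and 98. With an interval excluding 0 the shares were 5.46% and 8.42%. The mixture of cells differed, since 4 cKO cells at 10 to 25% globin gave 56821 of the 68505 UMIs and 1 of them alone gave 30904. The comparison was therefore repeated on 4 against 29 cells at 10 to 25%, over 583 genes, of which 4.12% were higher and 6.86% lower. Alas2 was at 2847 CPM (2461 to 3275) in cKO and 3248 in Ctrl, a log2 ratio of -0.19 (-0.43 to 0.04) over all members and -0.25 (-0.75 to 0.22) at 10 to 25%. In cKO Alas2 stood at 862, 9731 and 18069 in the ranges that held cells, close to the Ctrl order of 1027, 9432 and 17772. Slc4a1 was at 4014 and 3604, with log2 ratios of 0.16 (-0.05 to 0.35) and -0.01 (-0.30 to 0.28). At 25% globin and above Alas2 had 0.84 and Slc4a1 1.06, and at 50% and above -0.08 and 0.74.

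Of 8 haem synthesis genes only Ppox, protoporphyrinogen oxidase, was 2-fold higher in cKO, at 336 against 147 CPM, a log2 ratio of 1.19 (0.35 to 2.00), which was 0.99 with median-of-ratios scaling and 0.30 as a mean over cells. None of 16 late remodelling, 19 S phase or 17 G2/M genes passed 2-fold in either direction, with list medians of 0.27, 0.42 and 0.29. At 10 to 25% Isg20, an exonuclease of the remodelling list, had 1.39 (0.80 to 1.98) against 0.80 over all members. Of 19 membrane genes Add2 was higher, near the 5.46% over all genes, and of 9 transport genes Tmem14c and Ftl1 were, Ftl1 with 1.05 (0.83 to 1.28), which was 0.86 with median-of-ratios scaling. Of 11 transcription factors Klf1 and E2f4 were higher, Klf1 with 1.14 (0.43 to 1.83) and 0.95 with that scaling. At 10 to 25% globin 3 of 8 transcription factors were higher and none lower, with a median log2 ratio of 0.79 against 0.15 over all genes. Sox6 had 1.12 (0.51 to 1.73) there, E2f4 1.12 (0.35 to 1.88) and Klf3 1.15 (0.35 to 1.95). Over all members without the deepest cell of each library Klf3 had -1.33. Add2, a membrane skeleton adducin, had 1.62 (0.87 to 2.37) at 10 to 25% and 1.48 (0.83 to 2.12) over all members. Malat1 showed the Ctrl order in cKO too, with 4453, 32010.2 and 1549 CPM at 10 to 25, 50 to 75 and 75 to 100%.

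Over summed UMIs neutrophil and immunoglobulin genes were lower in the cKO members, but per cell the median neutrophil share was higher in cKO above 50% globin. The median share of UMIs other than globin was 5.78% in Ctrl and 5.66% in cKO over all members, 1.98 and 0.805% at 10 to 25%, 4.38 and 4.93% at 50 to 75%, and 6.71 and 8.24% at 75 to 100%. In the sums, of 10 neutrophil markers 9 were at least 2-fold lower, with a median log2 ratio of -2.13, and at 10 to 25% globin likewise 9 of 10, with -2.31. At 10 to 25% 2 of the 29 Ctrl cells, each with a neutrophil share of about 12%, held 780 of the 1501 S100a8 UMIs, 1194 of the 2060 S100a9 UMIs and all 5 Kit UMIs, with 0 UMIs of Gata1 and Klf1. Without them S100a8 was at 6182 in place of 10704 CPM in the Ctrl range, and the log2 ratios there were -1.46 in place of -2.25 for S100a8 and -1.38 in place of -2.37 for S100a9. S100a8 was at 5007 (4492 to 5564) against 16768 CPM (16241 to 17308), with -1.74 (-1.91 to -1.58). S100a9 had -2.10 (-2.25 to -1.95), Elane, neutrophil elastase, -3.16 (-4.09 to -2.37), Mpo, myeloperoxidase, -3.21 (-4.22 to -2.35) and Prtn3, proteinase 3, -4.21 (-6.10 to -2.84), while Retnlg had -0.44 (-1.06 to 0.13). The other kept cells went the opposite way, at 264537 CPM for the list in cKO and 158831 in Ctrl. Depth moved with this difference. At 10 to 25% the cKO members had a median of 12547 UMIs other than globin and the Ctrl members 4409, while the median number of neutrophil marker UMIs per cell was 98 and 89. Averaged over cells S100a8 had -0.24 and S100a9 -0.47, and at 25% globin and above S100a8 had -0.55 and Elane 0.01. A single Ctrl cell at 26.1% globin gave 1014 of the Ctrl S100a8 UMIs at 25% and above. Without that cell S100a8 was no longer lower in cKO at 25% and above. The part of depth and free RNA in the difference was not tested. Igkc had -2.89 (-3.91 to -2.03), and of 3 interferon-stimulated genes Isg15 and Ifitm3 were lower. By size of ratio the genes outside the lists included Mrpl18 with 1.71 (0.85 to 2.57), Raly with 1.62 and the ribosomal protein gene Rps2 with 1.44 (1.22 to 1.66), and at the low end Ly6c2 with -3.37 (-5.01 to -2.12), Fcnb with -3.36 (-5.66 to -1.77), Chil3 with -2.97 (-4.05 to -2.07) and the histone gene Hist1h3c with -3.36 (-4.82 to -2.21). Ly6c2, Fcnb and Chil3 are also myeloid genes. Rps2 has near-identical copies in the genome and had -1.91 at 25% globin and above, from 2 UMIs in cKO.

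**Figure D5:**
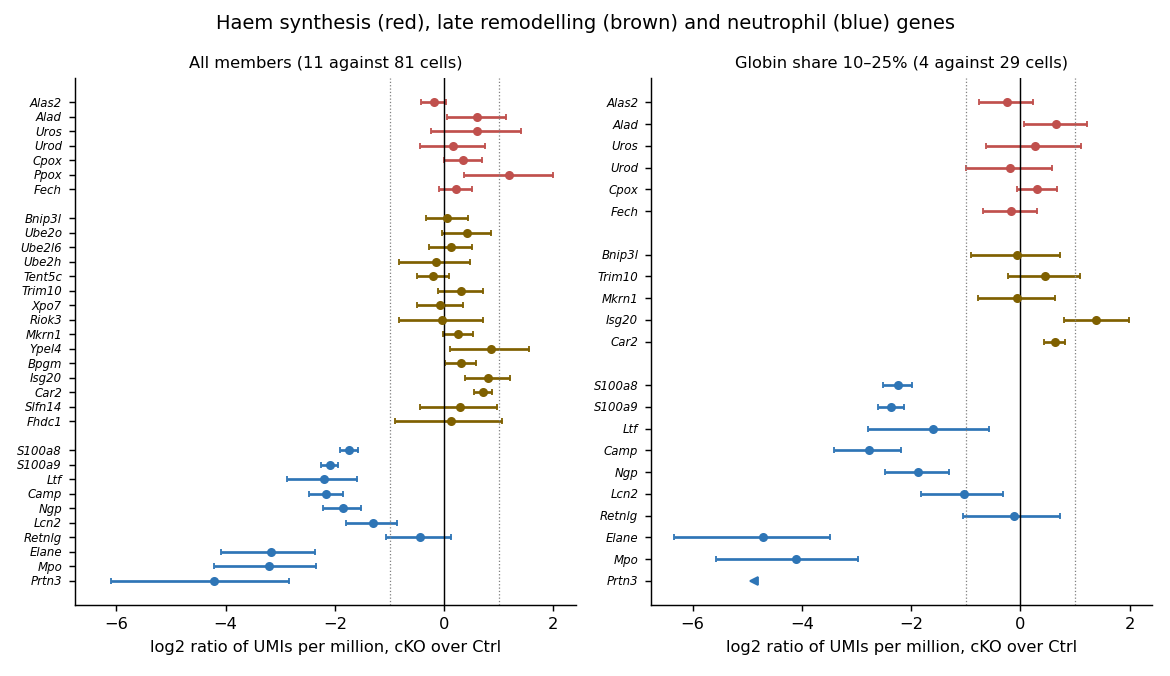
Log2 ratio of CPM, cKO over Ctrl, with exact 95% intervals as bars, for genes of haem synthesis (red) and late remodelling (brown) and neutrophil markers (blue), over all members on the left and at 10 to 25% globin on the right, where a left-pointing triangle is a bound for a gene at 0 in cKO. Dotted lines mark 2-fold, and the neutrophil markers lie to the left of it except Retnlg, while the erythroid genes lie mostly between the lines.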

How the data were processed

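Bone marrow scRNA-seq was analysed in 1 Ctrl and 1 cKO library. The authors deposited raw UMI counts for 32285 genes and every barcode called as a cell, made per the file headers with Cell Ranger 5.0.0 on the GRCm38 (mm10) genome, with lists of barcodes and genes, and without the cell filters of their methods. A barcode needed 200 to 9000 genes and no more than 30% mitochondrial UMIs, with no further UMI minimum, and members had a share of at least 10% of the 4 adult globins. No doublet caller was run and no barcode was removed as a doublet, so the kept cells differ from a set cleaned of doublets.

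UMIs were summed over the cells of a group and scaled per 1000000 UMIs other than the adult globins (CPM). Intervals are exact 95% binomial intervals, for levels of summed UMIs as for shares and ratios, and cover counting error only. Genes with fewer than 50 UMIs in the 2 sums were left out, a 2-fold difference was called, and a sum of 0 was set to a floor of 3 counts. With 1 library per genotype no test was made. The members, the reference groups and the 25 gene lists (294 genes, 3 of which are not used here) were chosen with earlier results of these data known. Apart from the lists and Map4k4, genes were named by the size of their ratio among those with at least 100 CPM in 1 of the sums and at least 50 UMIs: the 12 highest and 6 lowest of members against other cells, the 10 highest and 10 lowest of the top against the bottom globin range, and, where the interval excluded 0, the 8 highest and 8 lowest of cKO against Ctrl, of which examples are given. A few genes of the lists are counted but not reported here by name. Alternatives changed the gene, UMI and mitochondrial filters, the globin threshold, the denominator, the weighting of cells and the minimum per gene. The calculations were tested on simulated data, drawn from summed gene levels without differences between cells. That test therefore cannot show how the intervals behave where single cells hold much of a sum. Python 3.11.15 was used with numpy 2.4.6, scipy 1.17.1, pandas 2.3.3 and matplotlib 3.10.9.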

Additional observations from a re-analysis of the deposited data

Results flagged for a closer look

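Barcodes left out by the cell filter held further globin-rich droplets. Of 255 Ctrl barcodes outside the filter, 6 had a globin share of at least 10%, and of 154 such cKO barcodes 3 did, all of them with fewer than 200 genes. Their median globin share was 78.9% in Ctrl (29.8 to 89.9) and 88.1% in cKO (64.6 to 91.2), at a median of 1702 and 2837 UMIs. Alas2 had 27 UMIs in the 6 Ctrl barcodes and 12 in the 3 cKO barcodes, which together held 9308 and 8888 UMIs.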

How the results depend on the processing

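No paired analysis was possible because each genotype has 1 library. Both libraries carry the same replicate number. With at least 500 detected genes the Ctrl share was 0.453%, the Ctrl median depth 6021 UMIs and the beta share 59.3% in Ctrl and 59.9% in cKO. The Ctrl share was 1.25, 0.522 and 0.341% at thresholds of 5, 25 and 50% globin. The mean of per-cell beta shares was 51.8% in Ctrl and 53.8% in cKO. For members against other Ctrl cells, lower genes numbered 950 at 50% globin and above and 3524 as a mean over cells, all UMIs as denominator gave 821 higher and 4525 lower (median log2 ratio -0.53), and 1098 higher and 1020 lower had an interval excluding 0, an alternative added after seeing the data. For the top against the bottom range, 48 genes were lower with at least 500 detected genes, which leaves 1 cell in the top range, all UMIs gave 23 higher and 393 lower, with Lcn2 at -0.19, Igkc at -0.91, Ltf at -0.17 and Igha at -0.69, a mean over cells gave Igkc -0.0124, and a minimum of 200 UMIs per gene gave 12 and 67. For cKO against Ctrl, 141 genes were lower at 5% globin and above, 73 were higher at 25% and above, where Elane had 0.0120 and Rps2 -1.91, and 14 were higher and 10 lower at 50% and above. Higher genes numbered 16 with all UMIs and 16 with median-of-ratios scaling, 74 higher and 142 lower were found as a mean over cells, 8 and 15 with a minimum of 200 UMIs, and 24 and 40 at 10 to 25% globin, also added after seeing the data. The cause of these shifts was not tested. Removing each library's deepest member, likewise added, left 60 higher and 83 lower genes of 732. Other ratios were counted for a part of the named genes under these settings. Of these, 221 of cKO against Ctrl stayed within their interval and 63 did not, 128 and 33 of the top against the bottom range, and 122 and 55 of members against other cells. The turned directions of Fech, Slc25a37 and Ftl1 with all UMIs, given above, are not in these counts. Depth limits the top range, with 15192 UMIs other than globin over 21 Ctrl cells and 3874 over 4 cKO cells.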
